A study of Homo sapiens with 60 samples.

Results

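A549 cells exposed to herbal extracts at the lowest dose of the series, 20 µg/mL, were compared with cells that received only the DMSO vehicle. The low-dose side was the mean of 6 extracts with replicate libraries (17 libraries), the vehicle side had 3 libraries, and these 20 were chosen by their labels from 60 libraries in 25 groups. A549 is an established human lung adenocarcinoma line with features of alveolar type II cells. The cells were collected after 24 h and polyadenylated RNA was sequenced. The low-dose groups were the water extracts of Sibjeondaebo-tang (3 libraries) and Palmul-tang (2 libraries), which are multi-herb decoctions, and the ethanol extracts of Poria Cocos, Atractylodis Rhizoma, Glycyrrhizae Radix (licorice root) and Panax Ginseng (3 libraries each). Angelicae Gigantis Radix and Paeoniae Radix, with 1 low-dose library each, were outside the mean. The vehicle labels give 0.1% DMSO, whereas the text describing the design gives a higher percentage. That text also gives other doses for the more toxic extracts, while all low-dose labels read 20 µg/mL. Whether replicates were separate cultures is not in the labels, so the spread behind each p-value is that of these libraries and may be technical. The titles put all 60 libraries in the same batch, C. The vehicle carries its own sample code set (C1), the water extracts have code set 8, Poria and Atractylodis 9, and Glycyrrhizae and Ginseng 10. Extract, DMSO content, code set and handling therefore cannot be told apart in the comparison with the vehicle, and it is given here as a contrast of 2 sets of libraries and not as an extract effect.

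Cells adjust their sterol supply by a feedback in which low membrane sterol releases SREBP2, a membrane-bound transcription factor, to switch on the mevalonate pathway, sterol uptake and INSIG1, whose protein in turn retains the precursor of SREBP2. Passage through the cell cycle is marked by replication genes at G1/S and by mitotic genes at G2/M. Transcripts also differ in composition: long transcripts with long 3′ untranslated regions tend to be rich in A and T, while genes of ribosomal proteins and other compact housekeeping genes have short transcripts, and fragment recovery in sequencing libraries is known to depend on both GC content and length.

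Stretches of 60 coding bases from the 2 protein-coding genes with the smallest p among the 12 largest rises and from PKMYT1, chosen in the same way among the 12 largest falls, are shown as examples of the transcripts behind these differences. Each is the first in-frame stretch whose GC content is closest to that of its whole coding sequence, read from GENCODE 29 transcripts on GRCh38, with G and C in capitals.
TNRC6B (chr22:40044817-40335808, plus strand, coding bases 106 to 165, higher at low dose): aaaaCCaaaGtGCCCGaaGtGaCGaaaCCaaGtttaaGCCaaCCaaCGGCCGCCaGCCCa
KCNJ16 (chr17:70053429-70135608, plus strand, coding bases 1 to 60, higher at low dose): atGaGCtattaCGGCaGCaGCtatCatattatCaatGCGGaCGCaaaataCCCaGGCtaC
PKMYT1 (chr16:2968024-2980539, minus strand, coding bases 55 to 114, lower at low dose): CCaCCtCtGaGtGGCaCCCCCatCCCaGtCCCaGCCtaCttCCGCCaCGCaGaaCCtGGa
The whole coding sequences hold 53% G and C in TNRC6B and 44.8% in KCNJ16, against 65.6% in PKMYT1. TNRC6B lies near the median coding GC content of genes not called (52.7%), while the medians were 44.7% in genes called higher and 59.3% in genes called lower. Their 3′ untranslated regions are 12569 and 2262 bases long in TNRC6B and KCNJ16, against 218 bases in PKMYT1.

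The low-dose libraries held 21380838 to 29764332 counts and the vehicle libraries 18602480 to 22724543. The means were 24695000 and 21307000 counts (two-sided exact permutation test over 1140 arrangements, p = 0.0184, 0.0322 after Benjamini-Hochberg adjustment over 7 library measures; p = 0.152 without vehicle replicate 3). Poria low-dose replicate 3 had counts in 27941 genes, while the other low-dose libraries had counts in 22392 to 23424 genes and the vehicle libraries in 21653 to 22428. The epithelial marker list of A549 summed to 19500 to 21000 CPM (a gene's share of its library's counts, scaled by TMM) in the low-dose libraries and 21900 to 22600 CPM in the vehicle libraries. Marker lists of other cell types stayed low. The 8 fibroblast markers summed to 17.9 to 21.3 CPM at low dose, against 17.3 to 19.6 CPM in the vehicle. The 7 endothelial markers, with TIE1 at 0 in all 20 libraries, summed to 19.8 to 24.2 CPM at low dose, against 18.4 to 19.3 CPM in the vehicle. The 8 leukocyte markers, with MS4A1 at 0, summed to 17.4 to 30 CPM at low dose, against 25.4 to 32.3 CPM in the vehicle. Nearly all of the endothelial sum was the growth factor receptor KDR (20.8 against 17.96 CPM) and most of the leukocyte sum the lysosomal protein CD68 (20.0 against 25.2 CPM). In bulk RNA, fewer cells of a type and less RNA per cell cannot be told apart.

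The low-dose mean differed from the vehicle in many genes, mostly by small amounts. Of 17764 genes tested, 6050 (34.1%) passed edgeR's quasi-likelihood test at a Benjamini-Hochberg adjusted p under 0.05, called from here on. Of these, 3006 were higher (16.9%) and 3044 lower (17.1%) at low dose. The median size of the difference was 0.24 log2 in both directions. Among called genes, 173 were at least 1.5-fold higher (0.974%) and 137 at least 1.5-fold lower (0.771%), and 112 differed at least 2-fold in either direction (0.63%). Of these 112, only RFX3 (1.07 log2) had an approved symbol and at least 5 CPM in either group. The others lay below 5 CPM in both groups or had no approved symbol. The low-dose and vehicle libraries did not overlap at all in 1475 genes that were higher (8.3%) and 1294 that were lower (7.28%).

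The same comparison for each extract on its own, with the same 3 vehicle libraries each time, called 4282 genes with Sibjeondaebo-tang (24.1%), 2743 with Palmul-tang (15.4%), 3472 with Poria (19.5%), 4209 with Atractylodis (23.7%), 5119 with Glycyrrhizae (28.8%) and 5121 with Ginseng (28.8%). These 6 counts share their vehicle libraries and so are not independent of each other. The count for Palmul-tang was 836 without its replicate 3, 1645 without its replicate 2 and 1699 without vehicle replicate 2. Each of the first 2 counts rests on a lone Palmul-tang library, whose spread is taken from the rest of the libraries. That for Poria was 2227 without its replicate 1 and 2145 without vehicle replicate 2. Set against the mean of the other 5 low-dose groups, with no vehicle library involved, the extracts were called in far fewer genes: 5 with Sibjeondaebo-tang (0.0281%), 4 with Palmul-tang (0.0225%), 46 with Poria (0.259%), 1 with Atractylodis (0.00563%), 16 with Glycyrrhizae (0.0901%) and 4 with Ginseng (0.0225%). Unadjusted p-values under 0.05 were found in 876, 1324, 1651, 753, 1138 and 1148 genes in the same order, or 4.24% to 9.29% of those tested. An F test among all 6 low-dose groups called 51 genes (0.287%). Libraries with the same replicate number deviated together in code set 10, and with the number as a block inside each code set the 6 extracts were called in 17, 11, 137, 4, 24 and 18 genes in the order above and the F test called 168, a fit chosen after the data were seen.

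**Figure D1:**
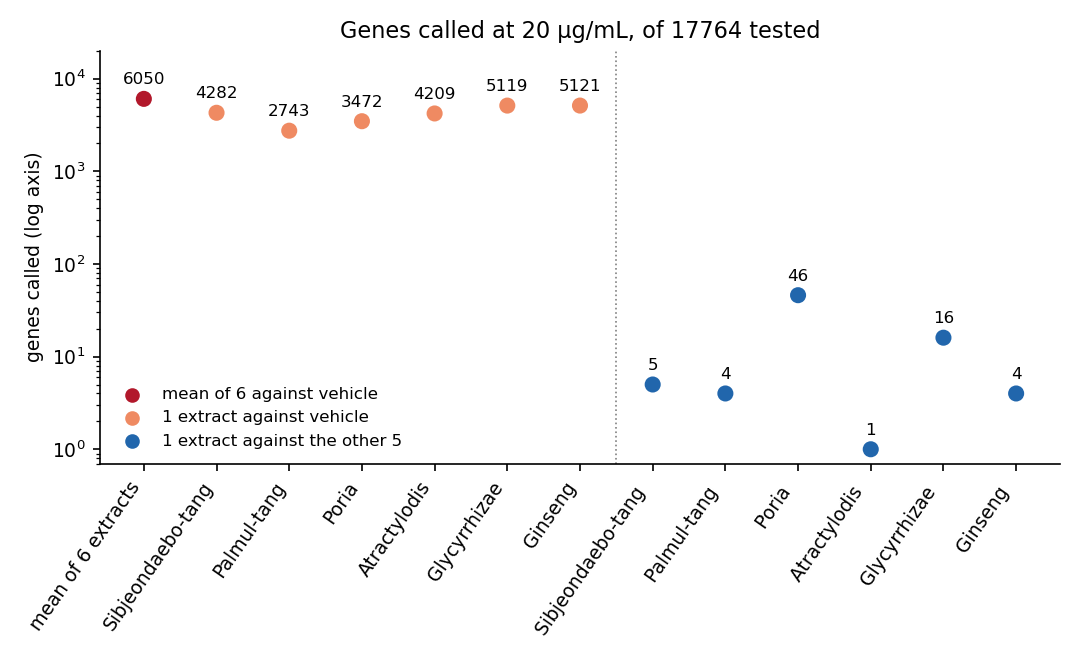
Genes called (adjusted p under 0.05, log axis) at 20 µg/mL for the mean of 6 extracts against vehicle (dark red), each extract against vehicle (orange) and each extract against the mean of the other 5 (blue). The comparisons with the vehicle lie between 2743 and 6050 genes and those among extracts between 1 and 46.

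The direction of the difference followed the composition of the transcript. Genes higher at low dose had a median GC content of 41.4% and a median transcript length of 5486 bases, genes lower at low dose 57.9% and 2113 bases, and genes not called 49.3% and 2677 bases. Across 17631 genes with a transcript in GENCODE 29, Spearman's rho of the log2 difference was -0.51 with GC content and 0.38 with length, and -0.46 and 0.31 when each was adjusted for the other. Genes are not independent replicates, and these coefficients are given as descriptions without a test. In the 10% of genes poorest in GC (26.7% to 38.8%), the median difference was 0.19 log2, with 45.9% of genes higher and 1.247% lower. In the richest 10% (61.9% to 75.2%) it was -0.22 log2, with 0.51% of genes higher and 45.04% lower. The longest 10% of transcripts had a median of 0.18 log2 and the shortest 10% -0.16 log2. Among the 1191 genes in both the GC-poorest and the longest 20%, 68.4% were higher and 0.756% lower. Among the 830 genes in both the GC-richest and the shortest 20%, 0.241% were higher and 42.8% lower.

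The coding region and the 3′ untranslated region showed the same tilt, and the promoter a smaller one. Over 10951 protein-coding genes the rho with the log2 difference was -0.51 for GC content of the coding sequence, -0.50 for that of the 3′ untranslated region, 0.32 for coding length and 0.44 for the length of the 3′ untranslated region. For the GC content of the 300 bases around the RefSeq transcription start it was -0.12, and 0.02 once transcript GC content was adjusted for. Transcript GC content adjusted for that of the promoter kept a rho of -0.59. The 3′ untranslated region had a median of 2871 bases in genes higher at low dose, 609 bases in genes lower at low dose and 1215 bases in genes not called.

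**Figure D2:**
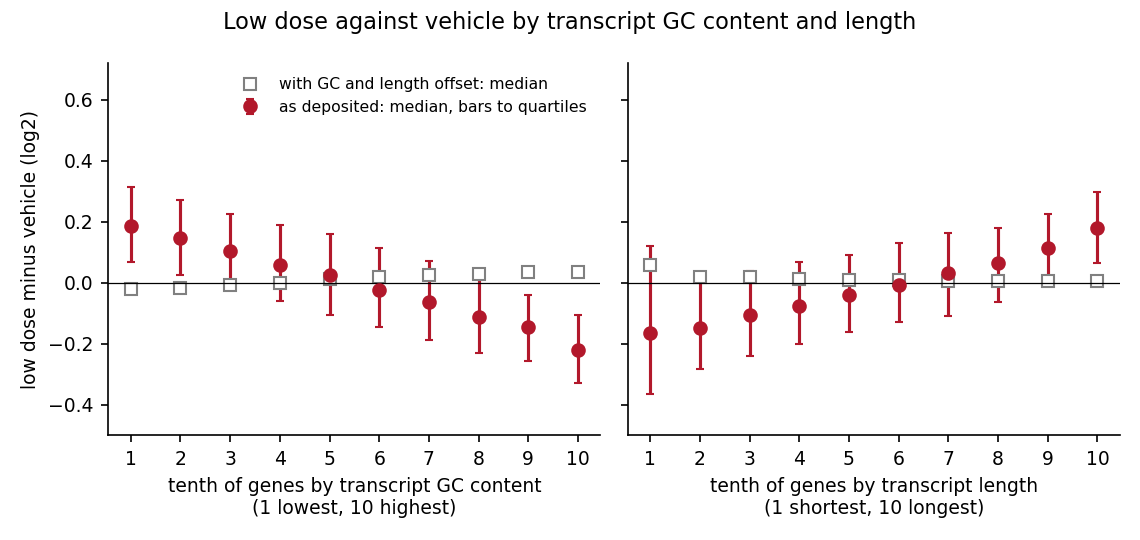
Log2 difference of low dose minus vehicle in 10 equal bins of genes by transcript GC content (left) and length (right), with medians and quartiles from the counts as deposited (red) and medians after a GC and length offset per library (open squares). The medians from the deposited counts reach -0.22 in the GC-richest bin and 0.18 in the longest bin, while those with the offset lie between -0.02 and 0.06.

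The tilt could be read library by library. The mean log2 CPM of the GC-poorest 20% of genes minus that of the GC-richest 20%, set to a mean of 0 in the vehicle, was 0.23 to 0.50 in the 17 low-dose libraries (median 0.32), against -0.07, 0.02 and 0.05 in the vehicle libraries. Every low-dose library lay above every vehicle library (exact permutation p = 0.000877, the smallest the 1140 arrangements can give). The corresponding tilt of the longest over the shortest 20% was 0.19 to 0.31 at low dose, against -0.02, -0.07 and 0.09 in the vehicle (exact permutation p = 0.000877). Both tilts were measures chosen after the data were seen. The permutations shuffle single libraries as if exchangeable, although these come as extract groups within code sets. Their p-values here and elsewhere in the text therefore do not measure replication of a condition. Weighting each transcript's GC content by its counts gave 49.3% ± 0.191 at low dose and 49.9% ± 0.0185 in the vehicle (SD, n = 17 and 3; exact permutation p = 0.000877, adjusted 0.00307), and count-weighted length averaged 3527 ± 84.9 and 3378 ± 87.0 bases (p = 0.00877, adjusted 0.0205; p = 0.0585 without vehicle replicate 1 and 0.0643 without vehicle replicate 2). The share of counts from mitochondrially encoded genes was 14.3% ± 2.02 and 13.8% ± 1.55 (exact permutation p = 0.683), a difference within the spread of the libraries, and that of the 100 most abundant genes 34.2% ± 2.04 and 34.3% ± 1.54 (exact permutation p = 0.970).

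Between the low-dose groups this tilt varied, which was not tested. It averaged 0.41 with Glycyrrhizae and 0.41 with Ginseng, the 2 extracts of code set 10, 0.33 with Atractylodis, 0.31 with Sibjeondaebo-tang, 0.28 with Poria and 0.27 with Palmul-tang. Medium-dose libraries of the same extracts had 0.23 to 0.57 and high-dose libraries 0.22 to 0.45.

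**Figure D3:**
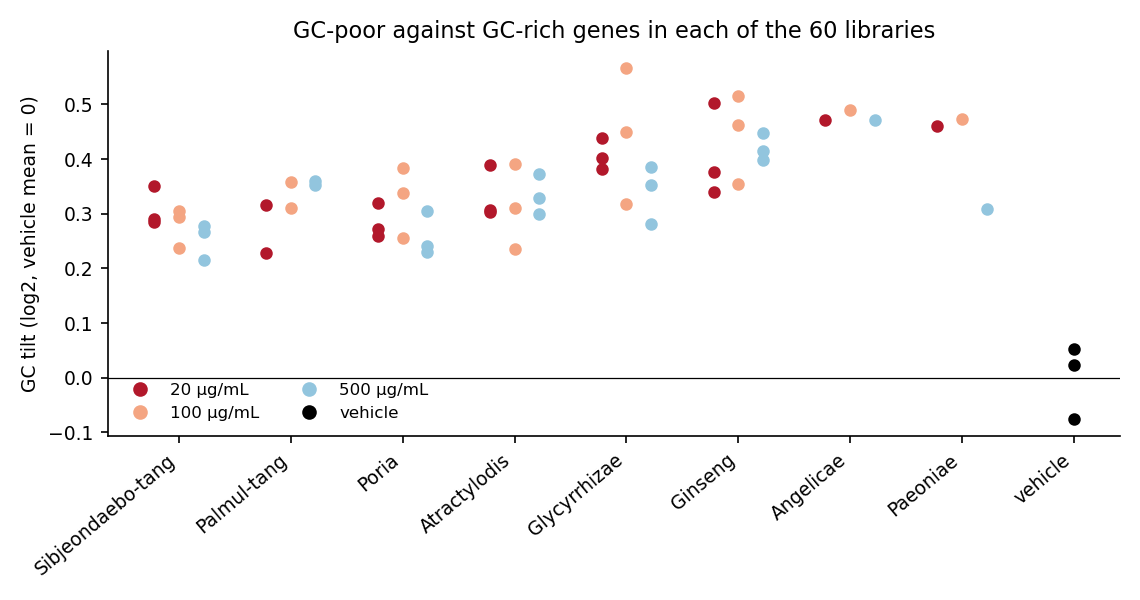
GC tilt of each of the 60 libraries: mean log2 CPM of the GC-poorest 20% of genes minus the GC-richest 20%, with the vehicle mean at 0, by extract and dose (colours) and in the vehicle (black). The low-dose libraries of the 6 replicated extracts lie between 0.23 and 0.50 and the vehicle libraries between -0.07 and 0.05.

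An offset per library, from smooth fits on GC content and on transcript length, was applied as an alternative. By its construction it takes out differences that run smoothly with these properties, whatever their origin. With it, Spearman's rho of the log2 difference was 0.10 with GC content and -0.06 with length. Its rho with mean CPM was -0.07 without the offset and -0.18 with it. With it 1230 genes were higher (6.92%) and 1287 lower (7.24%). Of the 3006 genes higher without it, 799 remained called higher and 82 were called lower. Of the 3044 genes lower without it, 659 remained called lower and 30 were called higher. Of the 11714 genes not called without it, 632 were called with it in the direction of their difference without it, and 315 in the opposite direction. Differences with the offset are given beside many of the members and lists below, but not all. Where none is given, it does not follow that the offset left the value unchanged.

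The largest rises at low dose included transcription factors and RNA-binding proteins with long, GC-poor transcripts. The rule for named genes took the 12 largest rises and falls among called genes with at least 5 CPM in either group. The ciliary transcription factor RFX3 (ENSG00000080298, chr9:3218297-3526004) had 7.47 to 9.99 CPM (median 8.58) in the low-dose libraries, against 4.09, 4.03 and 4.37 CPM in the vehicle libraries. Its groups did not overlap, and the difference was 1.07 ± 0.09 log2 (SE; edgeR adjusted p = 4.08e-12), or 0.77 with the offset (adjusted p = 1.12e-08). MALAT1 (ENSG00000251562, chr11:65497688-65506516), an abundant nuclear-retained long noncoding RNA, had 1196 to 1818 CPM (median 1406) at low dose, against 793, 777 and 788 CPM in the vehicle. All 17 low-dose libraries exceeded the vehicle, and the difference was 0.87 ± 0.08 log2 (adjusted p = 1.10e-11), or 0.66 with the offset.

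TNRC6B, a scaffold protein of microRNA silencing, had 35.2 to 43.6 CPM (median 38.6) at low dose, against 25.1, 23.4 and 25.9 CPM in the vehicle, a difference of 0.63 ± 0.04 log2 (edgeR adjusted p = 5.16e-14) and 0.40 with the offset. DDX6, an RNA helicase of processing bodies, had 68.3 to 90.2 CPM (median 83.1) at low dose, against 52.0, 52.0 and 54.1 CPM in the vehicle. The groups of both genes were apart in every library. The inward-rectifier potassium channel KCNJ16 rose by 0.64 ± 0.05 log2 and by 0.47 with the offset. The other rises were in the Ikaros-family factor IKZF2 (0.80 log2), the APOBEC1 cofactor A1CF (0.77), the helicase HELB (0.75), the Rab-GTPase regulator TBC1D8B (0.67), the noncoding RNA LINC00886 (0.67), the RNA-binding protein RO60 (0.64) and the zinc finger repressor ZBTB20 (0.64). With the offset these 7 were at 0.50, 0.48, 0.47, 0.44, 0.60, 0.34 and 0.30 log2, and ZBTB20 was not called (adjusted p = 0.241; 0.0877 without vehicle replicate 2).

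The largest falls were in short transcripts, most of them rich in GC. SNHG9 (chr16:1964959-1965509), a host gene of small nucleolar RNAs, had 2.41 to 4.71 CPM (median 3.58) at low dose, against 7.77, 6.36 and 5.06 CPM in the vehicle, a difference of -0.89 ± 0.15 log2 (edgeR adjusted p = 6.19e-06) and -0.44 with the offset. PKMYT1, a kinase that inhibits CDK1, had 17.4 to 23.5 CPM (median 19.3) at low dose, against 29.7, 29.1 and 28.0 CPM in the vehicle, without overlap. It fell by 0.54 log2 (SE 0.07), against -0.27 with the offset. The caveolar coat protein CAVIN3 had 6.49 to 8.93 CPM (median 7.79) at low dose, against 11.0, 12.3 and 10.2 CPM in the vehicle, and its difference of -0.54 ± 0.07 log2 became -0.18 with the offset, where it was not called (adjusted p = 0.0567).

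CENPW (chr6:126340174-126348875), a centromere protein gene with a short transcript of 37.9% GC, stood apart from these. It had 2.98 to 4.50 CPM (median 3.90) at low dose, against 4.69, 6.76 and 5.81 CPM in the vehicle, and its difference was -0.62 ± 0.09 log2 (edgeR adjusted p = 7.39e-07) without the offset and -0.61 with it. The IκB-family regulator NFKBID (-0.56 log2), the ATP receptor P2RY11 (-0.55) and the divergent transcript TBC1D22A-DT (-0.54) also fell, and NFKBID was not called with the offset (adjusted p = 0.0734). The strand setting of the counting is unknown, so reads of TBC1D22A-DT, and of OIP5-AS1 below, may include reads of genes on the opposite strand. Of the rest, 5 have near-identical relatives between which reads can be split, so their values are uncertain: FAM156B (-0.99), KRT86 (-0.66), BOLA2B (-0.63), XAGE1B (-0.55) and MTCO1P12 (-0.55), a nuclear copy of a mitochondrial gene. FAM156B lost its call without any 1 of the 3 vehicle libraries (adjusted p = 0.0653, 0.251 and 0.0777) and without 9 of the 17 low-dose libraries (adjusted p up to 0.0638), XAGE1B without vehicle replicate 1 or 2 (0.124 and 0.129) and KRT86 without vehicle replicate 3 (0.315).

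**Figure D4:**
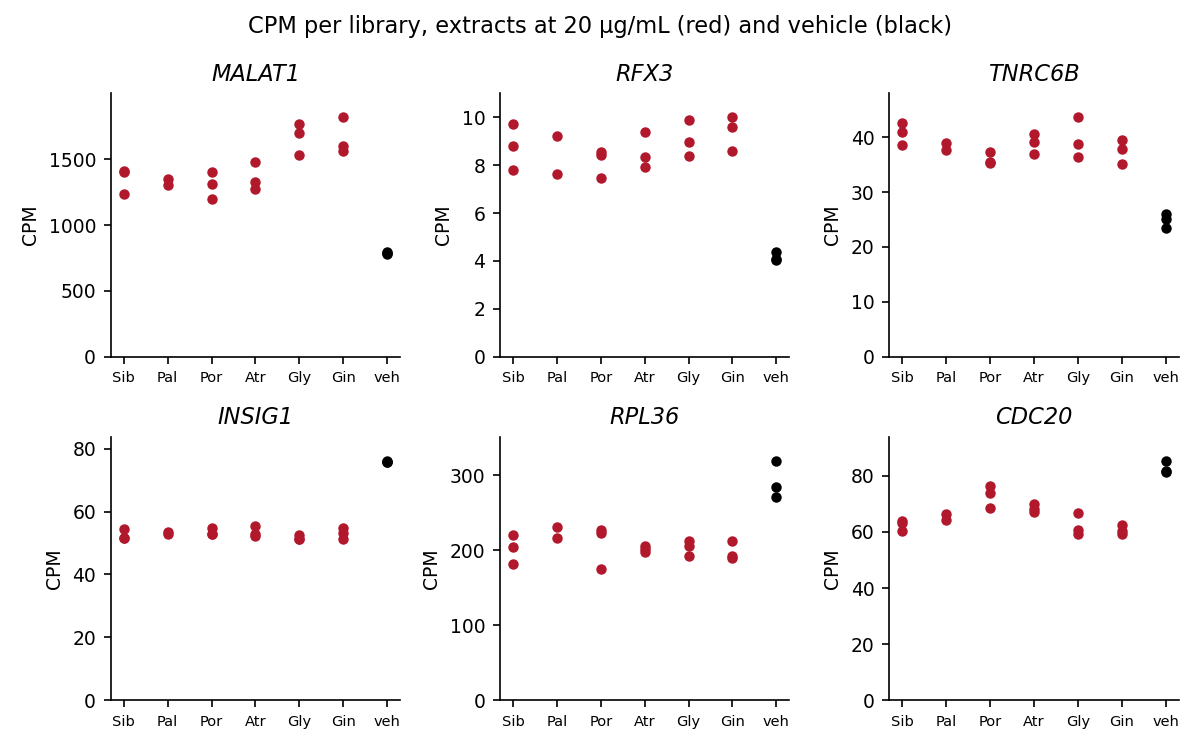
CPM per library of MALAT1, RFX3, TNRC6B, INSIG1, RPL36 and CDC20 in the 6 extracts at 20 µg/mL (red; Sibjeondaebo-tang, Palmul-tang, Poria, Atractylodis, Glycyrrhizae, Ginseng) and in the vehicle (black). The first 3 genes are higher and the last 3 lower in every low-dose library than in any vehicle library, and INSIG1 lies between 51.1 and 55.4 CPM at low dose and between 75.8 and 76.1 CPM in the vehicle.

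INSIG1 (ENSG00000186480, chr7:155297776-155310235), the sterol-dependent anchor of the SREBP2 precursor, had the smallest adjusted p of all genes. It had 51.1 to 55.4 CPM (median 52.8) in the 17 low-dose libraries, against 75.8, 75.8 and 76.1 CPM in the 3 vehicle libraries. Its values were tight within both groups and far apart between them. The difference was -0.52 ± 0.03 log2 (edgeR adjusted p = 1.77e-16), from -0.51 with Poria and with Atractylodis to -0.55 with Glycyrrhizae, and it was no smaller with the offset (-0.56, adjusted p = 9.29e-19).

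Called gene counts fell when a vehicle library was left out, to 4541 genes without replicate 1, 4362 without replicate 2 and 5509 without replicate 3, and the counts of the gene groups below fell with them where stated.

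Cholesterol synthesis and uptake genes were mostly lower at low dose. Of 25 tested, 3 were higher and 18 lower, with a median of -0.14 log2, beside 3006 higher, 3044 lower and a median of -0.0047 log2 among all 17764 tested genes. Without vehicle replicate 2, 11 were called lower, and without vehicle replicate 1 none was called higher by edgeR. With the offset 1 was higher and 10 lower (median -0.10), beside 1230 higher and 1287 lower among all. MVD, an enzyme that forms isopentenyl diphosphate, had 35.4 to 42.5 CPM (median 37.6) at low dose, against 57.5, 53.3 and 47.2 CPM in the vehicle (-0.45 ± 0.05 log2; -0.15 with the offset). Its groups did not overlap. HMGCS1, a synthase early in the mevalonate pathway, was not called (-0.09 log2, adjusted p = 0.0591) and was called lower with the offset (-0.24, adjusted p = 1.45e-06). The lipoprotein receptor LRP8, named after its values were seen, was lower (-0.32 log2, and -0.43 with the offset, adjusted p = 1.92e-09). The lathosterol oxidase SC5D and the demethylase CYP51A1 were among the 3 that were higher, by 0.21 and 0.12 log2.

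Replication genes were mostly lower, and mitosis genes were called lower in fewer cases. Of 24 G1/S genes 1 was higher (4.17%, beside 16.9% of all tested genes), the polymerase subunit POLA1, and 17 were lower (70.8%, beside 17.1%). Their median was -0.17 log2. With the offset 13 were lower and none higher (median -0.12), beside 7.24% and 6.92% of all tested genes. The largest were the licensing factor CDT1 (-0.38 ± 0.07 log2; not called with the offset, adjusted p = 0.0697), the CMG helicase assembly factor GINS2 (-0.37 ± 0.05) and the transcription factor E2F1 (-0.33 ± 0.06; not called with the offset, adjusted p = 0.219). GINS2 had 20.2 to 26.7 CPM (median 23.3) at low dose, against 28.1, 32.7 and 29.8 CPM in the vehicle, with no overlap, and was at -0.34 log2 with the offset. Of 24 G2/M genes 3 were higher (12.5%), namely TOP2A, CENPE and CENPF, all with long transcripts, and 11 were lower (45.8%). With the offset none was higher and 15 were lower. The median was -0.06 log2, and -0.14 with the offset, while the medians at medium and high dose were 0.05 and 0.06 log2. Without vehicle replicate 2, 7 G2/M genes were called lower and none higher, and 1 was called higher without vehicle replicate 1 or Palmul-tang replicate 3.

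CDC20, the mitotic activator of the anaphase-promoting complex, had 59.1 to 76.4 CPM (median 64.3) at low dose, against 81.7, 85.3 and 81.5 CPM in the vehicle, and its difference was -0.35 ± 0.03 log2 (edgeR adjusted p = 1.81e-10; -0.14 with the offset). It differed among the low-dose groups (F test adjusted p = 0.0028), from -0.18 log2 with Poria to -0.45 with Ginseng. The ubiquitin-conjugating enzyme UBE2C (-0.40 ± 0.07) and the mitotic kinase AURKB (-0.36 ± 0.04) were also lower, at -0.23 and -0.14 log2 with the offset. The proliferation marker MKI67 was not called (-0.01 ± 0.07 log2, adjusted p = 0.947).

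Genes of large housekeeping complexes were mostly lower, and with the offset fewer of them were called. Of 77 cytosolic ribosomal protein genes 61 were lower (79.2%, beside 17.1% of all tested genes) and none higher (beside 16.9%), with a median of -0.24 log2. With the offset 27 were lower and 1 higher (median -0.09), beside 7.24% and 6.92% of all tested genes. Without vehicle replicate 2, 37 were called lower. Together they made up 5.04% ± 0.215 of counts at low dose and 5.83% ± 0.262 in the vehicle (SD, n = 17 and 3; exact permutation p = 0.000877, adjusted 0.00307). RPL36, a large-subunit protein, had 175 to 231 CPM (median 205) at low dose, against 285, 319 and 271 CPM in the vehicle, without overlap. It differed by -0.50 ± 0.06 log2 and was not called with the offset (-0.13, edgeR adjusted p = 0.0871). RPS15 of the small subunit (-0.47 ± 0.07) was likewise not called with the offset (-0.09, adjusted p = 0.373), whereas FAU, which encodes the S30 protein, still was (-0.47 ± 0.05 without the offset and -0.30 with it). Of 34 nuclear-encoded respiratory chain genes 25 were lower (73.5%) and 2 higher (5.88%), with a median of -0.23, and 13 and 1 with the offset. Without vehicle replicate 1, 1 was called higher. They included the complex I subunit NDUFA3 (-0.44 ± 0.07) and the cytochrome oxidase subunit COX5B (-0.39 ± 0.05). Of 29 proteasome genes 16 were lower (55.2%) and 1 higher (3.45%), with a median of -0.13. With the offset 7 were lower and none higher (median -0.02). The ATPase subunit PSMC3 was at -0.27 log2 without the offset and -0.07 with it. Without vehicle replicate 2 the proteasome count was 7 lower and none higher, and none was called higher without vehicle replicate 1. None of the 13 mitochondrially encoded transcripts was called by edgeR (median 0.03), and 1 was called higher without vehicle replicate 1, Poria replicate 1, Atractylodis replicate 1 or Ginseng replicate 2.

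Liver-type secreted proteins, which A549 cells make, were the list with the highest median among those with at least 10 tested genes. Of 13 tested, 9 were higher (69.2%, beside 16.9% of all tested genes) and 1 lower (7.69%, beside 17.1%), with a median of 0.23 log2. With the offset 6 were higher and none lower (median 0.14), beside 6.92% and 7.24% of all tested genes. Without vehicle replicate 1, 4 were called higher, and without vehicle replicate 2 none was called lower. Complement C5 had 128 to 155 CPM (median 144) at low dose, against 94.4, 92.9 and 112 CPM in the vehicle, with no overlap and a difference of 0.51 ± 0.04 log2 (edgeR adjusted p = 5.59e-12; 0.32 with the offset). The lipoprotein gene APOB (0.47 ± 0.09) and the kininogen gene KNG1 (0.35 ± 0.08) were higher, and neither was called with the offset (adjusted p = 0.0571 and 0.0506). The 1 gene that was lower, APOA1, was present at 0.258 CPM at low dose and 0.525 CPM in the vehicle.

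Stress pathways held genes called in both directions, beside 16.9% higher and 17.1% lower among all tested genes. Among 20 p53 targets 6 were higher (30%) and 9 lower (45%), and 4 and 1 with the offset. The zinc finger RNA-binding protein ZMAT3 (0.62 ± 0.05 log2) and the p53 ubiquitin ligase MDM2 (0.46 ± 0.05) rose and stayed called with the offset at 0.36 and 0.21 log2. The cell cycle inhibitor CDKN1A fell by 0.21 log2 and was at -0.03 with the offset (edgeR adjusted p = 0.456). Among 23 NRF2 targets 5 were higher (21.7%) and 7 lower (30.4%). The UDP-glucose dehydrogenase UGDH was at 0.31 ± 0.03 log2, the growth inhibitor OSGIN1 at -0.54 ± 0.05 and the heme oxygenase HMOX1 at -0.25 ± 0.06 (-0.05 with the offset, edgeR adjusted p = 0.565). Among 26 ATF4 targets 2 were higher (7.69%) and 10 lower (38.5%; 6 genes without vehicle replicate 2), including ATF5 (-0.47 ± 0.10; not called with the offset, adjusted p = 0.0557) and DDIT3 (-0.43 ± 0.08; -0.28 with the offset). The heat-shock protein gene HSPA1A, which has the near-identical copy HSPA1B, was higher by 0.18 ± 0.04 log2, and by 0.36 with the offset.

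Immediate early genes were lower in 7 (38.9%, beside 17.1% of all tested genes; 4 genes without vehicle replicate 1) and higher in 2 (11.1%, beside 16.9%) of 18, with a median of -0.15 log2 that became 0.04 with the offset. KLF10, a repressor induced by TGF-beta, was higher (0.39 ± 0.07 log2; 0.36 with the offset) and the factor KLF4 lower (-0.40 ± 0.08; -0.29 with the offset). FOS was at 9.30 CPM in both groups. The orphan receptor NR4A1 was lower (-0.31 ± 0.07) and differed among the low-dose groups (F test adjusted p = 0.028). The NF-κB subunits RELB (-0.50 ± 0.10) and NFKB2 (-0.33 ± 0.04) fell, and RELB was not called with the offset (edgeR adjusted p = 0.0857). In the clock, of 18 genes 6 were higher (33.3%) and 3 lower (16.7%), and 1 was lower without vehicle replicate 1 or 2. The repressor NR1D2 fell (-0.34 ± 0.09; -0.55 with the offset), with an adjusted p of 0.0615 without vehicle replicate 2, and the repressor NFIL3 rose (0.32 ± 0.07; 0.34 with the offset).

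Of 5 genes for metallothioneins and zinc export 1 was higher (20%, beside 16.9% of all tested genes) and 4 lower (80%, beside 17.1%). Their median was -0.36 log2, and none was called by edgeR with the offset (median -0.07). Without vehicle replicate 2 none of the 4 was called lower. MT2A, a metal-binding protein, had 186 to 399 CPM (median 320) at low dose, against 385, 442 and 438 CPM in the vehicle (-0.43 ± 0.14 log2), and MT1X was at -0.36 ± 0.11 log2. MT2A was not called without vehicle replicate 2 or 3 (adjusted p = 0.0875 and 0.0705), nor MT1X without vehicle replicate 2 (0.0715). Of 10 epithelial markers of A549, 2 were higher (20%) and 4 lower (40%), with a median of -0.06 log2. With the offset 2 were higher and 3 lower (median -0.04). When 1 library was left out, 1 to 2 were called higher. Among these markers the keratins KRT7 (-0.34 ± 0.04) and KRT18 (-0.26 ± 0.04) were lower and the cadherin CDH1 higher (0.23 ± 0.03). With the offset the keratins were at -0.08 and -0.06 and were not called (adjusted p = 0.150 and 0.203), and CDH1 was at 0.19. GAPDH, often used as a loading control, was lower, at -0.29 ± 0.05 log2, and was not called with the offset (-0.09, adjusted p = 0.169).

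Among 20 long noncoding RNAs and snoRNA hosts 5 were higher (25.0%, beside 16.9% of all tested genes) and 11 lower (55%, beside 17.1%; 5 genes without vehicle replicate 2), with a median of -0.16 log2. MALAT1 and OIP5-AS1 (0.35 ± 0.04 log2), which binds the RNA-binding protein HuR, were higher and SNHG7 (-0.42 ± 0.07) and SNHG9 lower, and neither OIP5-AS1 nor SNHG7 was called with the offset (edgeR adjusted p = 0.0930 and 0.157). Of 27 splicing regulators whose transcripts retain introns 9 were higher (33.3%) and 3 lower (11.1%), with a median of 0.03, and -0.01 with the offset. Among them were the RNA-binding protein TIA1 (0.35 ± 0.04), the helicase DDX17 (0.28 ± 0.03) and the splicing factor SRSF5 (-0.22 ± 0.05). The list labelled KRAB-type zinc finger genes held all 405 tested genes named ZNF and a number, with no check for a KRAB domain. Their median GC content was 43.9%. Of these, 96 were higher (23.7%) and 36 lower (8.89%), or 20 lower without vehicle replicate 1, with a median of 0.10. With the offset 21 were higher and 18 lower (median 0.03), beside 6.92% and 7.24% of all tested genes.

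The other lists were called in differing shares, beside 16.9% higher and 17.1% lower among all tested genes. Of 17 endoplasmic reticulum chaperones 6 were higher (35.3%) and 2 lower (11.8%), of 15 heat-shock chaperones 6 (40%) and 1 (6.67%), of 14 PPAR targets and fatty acid oxidation genes 6 (42.9%) and 1 (7.14%), and of 13 fatty acid synthesis genes 4 (30.8%) and 3 (23.1%). TGF-beta and mesenchymal genes were higher in 6 (33.3%) and lower in 4 (22.2%) of 18, YAP and TEAD targets in 4 (26.7%) and 4 (26.7%) of 15, and glucocorticoid-responsive genes in 5 (33.3%) and 1 (6.67%) of 15. Of 22 hypoxia and glycolysis genes 4 were higher (18.2%) and 5 lower (22.7%), shares near those of all genes, among them the collagen hydroxylase subunit P4HA1 at 0.33 ± 0.05 log2. Interferon-stimulated genes were higher in 2 (11.8%) and lower in none of 17, NF-κB cytokines and feedback genes in 2 (11.8%) and 5 (29.4%) of 17, and MAP kinase output genes in 3 (21.4%) and 1 (7.14%) of 14. Replication-dependent histones were higher in 3 (27.3%) and lower in 1 (9.09%) of 11, and surfactant, mucin and alveolar genes in 2 (25.0%) and none of 8.

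Several of these small counts moved when 1 library was left out. Without vehicle replicate 1, NF-κB genes were lower in 3, YAP and TEAD targets lower in 2, MAP kinase genes higher in 1 and lower in none, histones higher in 1 and lower in none, and chaperones of the endoplasmic reticulum lower in 1. Without vehicle replicate 2, glucocorticoid-responsive genes were higher in 3 and lower in none, MAP kinase genes higher in 1, and histones and surfactant genes higher in none and the same chaperones lower in none. Without vehicle replicate 3, NF-κB genes, histones and surfactant genes were higher in 1 each, and histones and glucocorticoid-responsive genes lower in none. The chaperones lower and the surfactant genes higher were 1 each without any of 11 low-dose libraries, and interferon-stimulated genes higher were 4 without Ginseng replicate 1 or Glycyrrhizae replicate 2.

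Of 7 aryl hydrocarbon receptor targets 1 was higher and 1 lower (14.3% each), shares near the 16.9% and 17.1% of all tested genes. CYP1B1 was higher (0.13 ± 0.03 log2), and was at 0.01 with the offset (edgeR adjusted p = 0.880). ALDH3A1 was lower (-0.14 ± 0.03 log2), and was higher by 0.09 log2 with the offset.

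**Figure D5:**
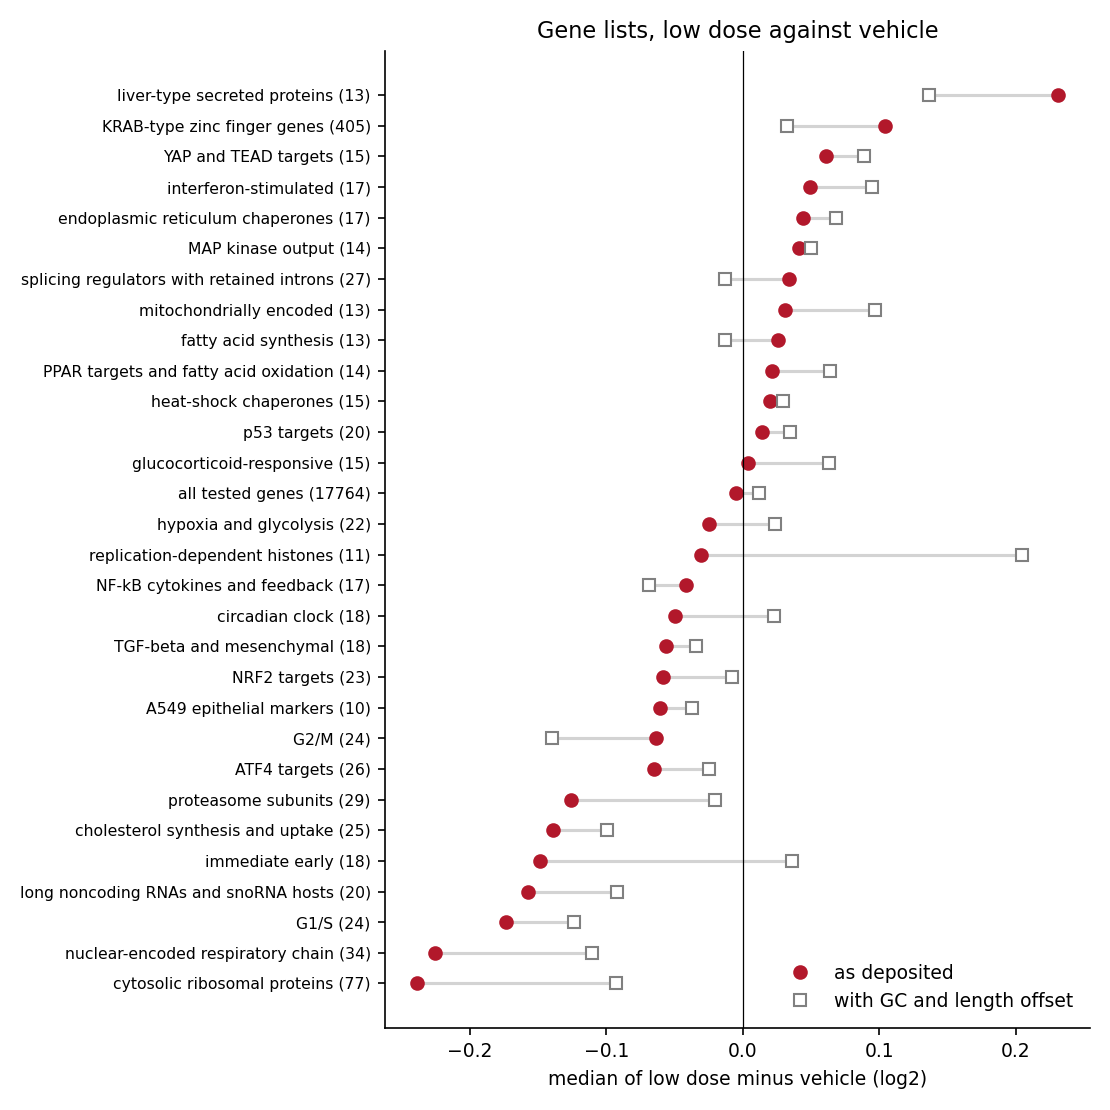
Median log2 difference of low dose minus vehicle for each gene list with at least 10 tested genes (number tested in parentheses), from the counts as deposited (filled) and with the GC and length offset (open). Cytosolic ribosomal proteins are lowest at -0.24 and liver-type secreted proteins highest at 0.23. With the offset these 2 lie at -0.09 and 0.14, and G2/M genes are lowest at -0.14 and replication-dependent histones highest at 0.20.

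The higher doses of the same extracts gave similar numbers of calls against the same vehicle libraries, which all 3 comparisons share: 6144 genes at 100 µg/mL (34.6%) and 6129 at 500 µg/mL (34.5%), beside 6050 at 20 µg/mL. INSIG1 was at -0.52, -0.50 and -0.32 log2 at the low, medium and high dose, MALAT1 at 0.87, 0.81 and 0.83, RFX3 at 1.07, 1.07 and 1.13, RPL36 at -0.50, -0.48 and -0.43, and CDC20 at -0.35, -0.22 and -0.15.

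High against medium dose, 17 libraries each with no vehicle or low-dose library among them, called 1112 genes higher (6.26%) and 1267 lower (7.13%). Of the genes that were higher at low dose than in the vehicle, 164 rose (5.46%) and 523 fell (17.4%) between medium and high dose, and of those that were lower 360 rose (11.8%) and 112 fell (3.68%), beside 588 (5.02%) and 632 (5.40%) of the genes not called. The first class made up 41.3% of all genes that fell and 14.7% of those that rose, and the second 8.84% and 32.4%. Without Glycyrrhizae, high against medium dose called 586 genes in all. Of the genes higher at low dose, 30 then rose (0.998%) and 131 fell (4.36%). Of those lower at low dose, 148 rose (4.86%) and 24 fell (0.788%). Among the genes not called at low dose, 111 rose (0.948%) and 142 fell (1.21%). INSIG1 was higher by 0.17 log2 at high than at medium dose (edgeR adjusted p = 1.69e-10), and MALAT1, at 0.02 log2, was not called.

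The genes that set low-dose extracts apart from the other 5 were few, and some were called with several extracts. SAA1 and SAA2, near-identical acute-phase serum amyloid genes whose reads can be split between them, the complement factor CFB and the chemokine CXCL8 were among the 51 genes that differed among the 6 groups. Against the other 5, SAA2 was called with every extract but Poria. SAA1 and CXCL8 were called with both water extracts, Glycyrrhizae and Ginseng, and CFB with both water extracts. CFB had 5.12 to 10.1 CPM at low dose and CXCL8 1.13 to 3.61 CPM, against 5.51 to 6.34 and 1.28 to 1.75 CPM in the vehicle. In Poria, the extract with the most calls against the other 5, these included the replication helicase subunits MCM3, MCM4, MCM6 and MCM7. They also included the hypoxia-responsive genes CA9, P4HA1 (also called with Sibjeondaebo-tang), NDRG1 and BNIP3. The direction of these calls, and of those with the other extracts, is not given here. These genes were picked from the 46 calls with Poria, which also held the mitotic genes CDC20 and CCNA2 and the secreted protein genes CP and TF. That count was 9 without Poria replicate 1, 17 without its replicate 2, 29 without Palmul-tang replicate 3 and 28 without Glycyrrhizae replicate 3. With Glycyrrhizae the calls included the aldehyde dehydrogenase ALDH3A1 (also called with Ginseng) and the cytochrome CYP1B1, both targets of the aryl hydrocarbon receptor. Its 16 calls were 4 without any 1 of its 3 libraries, and 8 and 9 without Palmul-tang replicate 2 and 3. The 4 calls with Ginseng were 2, 1 and 2 without its replicates 1, 2 and 3, the 4 with Palmul-tang were 2 without either of its libraries, and the 1 with Atractylodis became 2 without Glycyrrhizae replicate 3. The 51 genes of the F test were 26 and 32 without Palmul-tang replicate 2 and 3, and 26 and 17 without Poria replicate 1 and 2.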

How the data were processed

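Per the submitters' processing notes, the upstream tools were Trim Galore 0.6.5, FastQC 0.11.9, STAR 2.7.3a and RSEM 1.3.3 on the GRCh38 genome; for the gene annotation and the strand setting of the counting, the entry is not given in the sources used here. A table of 60675 gene identifiers and 270 columns of expected counts was what the authors deposited. Of its columns 60 belong to these samples, and 210 were not used. Values above 0 were whole within 1e-09 in 76.0% of cases, and all were rounded. Symbols came from gene name tables (41209 identifiers) and GENCODE 29 (57055), whose longest transcript per gene gave length and GC content. Promoter sequences were RefSeq's.

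The filter of edgeR 4.0.16 (filterByExpr; R 4.3.3) left 17764 genes. With TMM scaling, all 60 libraries entered 1 fit with a mean for each group (estimateDisp, glmQLFit, glmQLFTest; 35 residual degrees of freedom, common biological coefficient of variation 5.59%), and p-values were adjusted over all tested genes. The contrast was the mean of 6 group means minus vehicle. SE is the absolute log2 difference over the square root of F. Library measures were compared by exact permutation of single libraries, without regard to extract group or code set. DESeq2 1.42.0 was an alternative. Replicate pairs (19) differed by more than sampling noise, with a chi-square over its degrees of freedom of 2.59 to 36.6. On simulated counts of low dose against vehicle (17376 genes), 6, 35, 44 and 50 of 50 genes changed 1.1-, 1.25-, 1.5- and 2-fold were recovered. Of 17176 unchanged genes 9 were called. The simulated libraries were drawn independently, without a GC or length tilt, code sets or shared deviations. The simulation therefore does not measure false calls in the deposited data.

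Named genes were the 12 largest rises and falls among called genes with an approved symbol and 5 CPM or more in either group, up to 3 called members of each of 35 lists with the largest change, and fixed genes (among them MALAT1, CDKN1A, MKI67, HMOX1, FOS and HMGCS1), of which part is printed. Genes named beside a count of at most 5, the genes that set extracts apart and LRP8 were picked with their values in view. The samples and lists were chosen with earlier results of these data known. Correlations of same-numbered libraries' deviations from their group means were 0.21, 0.64 and 0.52 between Glycyrrhizae and Ginseng (code set 10), 0.09, 0.18 and 0.25 between Poria and Atractylodis (set 9) and -0.03 and -0.03 between the water extracts (set 8), so the numbers pair the libraries in set 10. Some items are not reported here.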

Additional observations from a re-analysis of the deposited data

Results flagged for a closer look

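Apart from the genes named for setting extracts apart, genes described above that differed among the 6 low-dose groups by the F test (edgeR, Benjamini-Hochberg adjusted over all tested genes) included MALAT1 (adjusted p = 0.0496), CDC20 (0.0028), NR4A1 (0.028), CYP1B1 (5e-04), ALDH3A1 (3.26e-07) and P4HA1 (0.00733). For these, the low-dose mean averages over extracts that were not alike. MALAT1 was at 1.08 log2 against the vehicle with both Glycyrrhizae and Ginseng, and at 0.73 to 0.79 log2 with the other 4 extracts.

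The low-dose libraries of Angelicae and Paeoniae, which have no replicate and entered no comparison, had GC tilts of 0.472 and 0.461, against at most 0.05 in the vehicle libraries.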

How the results depend on the processing

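The 6050 calls were 4362 to 6117 when 1 library was left out, 3006 higher 2234 to 3065 and 3044 lower 2128 to 3109. They were 5541 to 6232 with RLE, DESeq2, no filter, thinning, 20 libraries only, 17 libraries as 1 group or a replicate block, and 5814 to 6127 without 1 extract. Against a fold of 1.2, 174 remained (122 higher, 52 lower). The GC and length offset gave 2517 (1230, 1287). Each extract against vehicle then had 1801 (Sibjeondaebo-tang), 1271 (Palmul-tang), 884 (Poria), 1067 (Atractylodis), 1440 (Glycyrrhizae) and 1502 (Ginseng), medium and high dose 2034 and 2759, Poria against the other 5 had 89 and the F test 79.

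Replicate numbers did not pair vehicle and extract libraries (mean correlation of deviations -0.02, range -0.31 to 0.24, n = 17). A block within code sets, which left out the vehicle, gave 17, 11, 137, 4, 24 and 18 calls per extract against the other 5 and 168 in the F test. The replicate block gave 6232 calls, 7 for Palmul-tang, 100 for Poria and 7 for Ginseng against the other 5, and 103 in the F test. The block with the offset gave 2752 (1365, 1387), 2030, 1313, 1041, 1259, 1624 and 1752 per extract against vehicle, 2229 and 2949 at medium and high dose, 16, 7, 141, 2 and 10 against the other 5 (all but Glycyrrhizae) and 130 in the F test. With no filter the 6 extracts had 126, 121, 258, 89, 136 and 147 calls against the other 5 and the F test 569. DESeq2 gave 86 for Poria and 3 for Atractylodis. With edgeR, high against medium dose without Glycyrrhizae had 586.

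Leave-1-out ranges per extract against vehicle were 2914 to 4035, 836 to 2819, 2145 to 3414, 2846 to 4011, 3955 to 4840 and 3967 to 4881, against the other 5 4 to 7, 2 to 5, 9 to 68, 1 to 2, 4 to 15 and 1 to 5, and in the F test 17 to 60. Without 1 vehicle library, medium and high dose had 4542 to 5606 and 4605 to 5549 calls, and the difference in total counts was 2034900 to 4095900, in weighted length 121.6 to 199.5, in the mitochondrial share -0.0529 to 1.41 and in the share of the 100 most abundant genes -0.735 to 0.777. ALDH3A1 (-0.14 log2) reversed to 0.0926 with the offset, and to 0.0926 with the offset and the block. Of 74 genes examined singly, 47 kept direction and call with the offset. Apart from the offset's own construction, the causes were not tested.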
